A study of Danio rerio with 36 samples.

Results

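Whole wild-type zebrafish embryos at 24 hours post-fertilization (hpf) were compared with the brains of 3-month-old wild-type adults. The comparison takes up 6 libraries of the 36 in the series, 3 of embryos and 3 of brains, chosen by their labels alone. Each embryo library pooled 50 dechorionated embryos raised at 28.5 °C, and each brain library pooled the dissected brains of 3 adults, which had been bled by tail resection on ice. The fish were wild type at sgsh, the gene for the lysosomal enzyme lost in mucopolysaccharidosis IIIA, and no strain is given for them apart from that of the mutant line, which the study lists as TU. The adults were picked without regard to sex. The wider study covers sgsh mutants, labelled homozygous for sgshΔex5-6, beside wild type at these and other ages. Below, 24 hpf embryos and 3-month brains of these mutants are set beside the wild type. So are wild-type heads at 5 days post-fertilization (dpf) and wild-type 2-month brains. Brains of wild-type and sgsh fish at 18 months enter only an alternative fit of all libraries in the same count table.

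Stage and tissue differ together in this comparison. An embryo library holds RNA from every tissue of the animal, its brain included, while a brain library holds RNA from an organ that in the embryo is a small part of the whole. A difference between the groups therefore cannot be assigned to age or to tissue, since the 2 cannot be told apart here. In such bulk samples, fewer cells of a type and less RNA per cell cannot be told apart either. Nothing in the labels says that the pools came from separate clutches or tanks, so that p-values measure only the spread between these libraries.

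At this embryonic stage the zebrafish has a beating heart, contracting trunk muscle, a notochord, a layered skin and primitive red blood cells, and it still feeds on yolk. Its neural tube consists mostly of dividing progenitors, with the first neurons already sending out axons. The adult brain holds mature neurons with chemical synapses, myelinating oligodendrocytes, radial glia that take the place of mammalian astrocytes, microglia and vessels. Many zebrafish genes exist as duplicates, named with a final a and b, which arose when the genome of an ancestor of the teleost fishes doubled, and the members of such a pair can divide the work of the ancestral gene between stages or tissues.

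Total counts per library ranged from 25837318 to 26038889 in the embryos and from 22527508 to 22590109 in the brains. Mitochondrial transcripts made up 3.78 to 3.98% of the counts in the embryos and 9.38 to 9.59% in the brains. The sgsh transcript itself had counts of 181, 223 and 204 in the embryo libraries and 107, 92 and 103 in the brain libraries. The groups did not overlap, and the level in brain was lower by a log2 fold change of -0.88 (SE 0.12, adjusted p = 6.71e-06, edgeR's quasi-likelihood test with Benjamini-Hochberg adjustment), which did not pass the 2-fold test described next.

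Embryo replicate 3 stood apart in small amounts of brain transcripts, and brain replicate 1 in some transcripts of muscle and matrix. Over 35 transcripts that mark the brain libraries of the sgsh fish, the summed level was 9.84, 10.7 and 35.8 CPM (counts scaled to the library's size) in embryo replicates 1, 2 and 3, the last being 0.117% of the level in brain. Embryo replicate 3 held the highest value for 29 of the 35. Over 138 embryo transcripts chosen in the same way, the summed level was 122, 78.7 and 79.4 CPM in brain replicates 1, 2 and 3, while the highest value fell in these replicates for 53, 54 and 31 of them, so that replicate 1 did not stand apart in most of these transcripts. The excess of replicate 1 was in single genes, with actc1b, an actin of striated muscle, at 471, 139 and 190 counts and col1a1a, a chain of collagen type I, at 3387, 761 and 731 counts in brain replicates 1, 2 and 3. The part of these traces in the results was not tested, and for genes that they touch most the log2 fold change without the library concerned is given below.

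Of 21531 genes tested, 90.8% differed between embryo and brain at an adjusted p under 0.05 by edgeR's quasi-likelihood test, 9682 (45.0%) being higher in brain and 9860 (45.8%) higher in embryo. Because nearly every gene differed, genes are described here by a stricter test, edgeR's test against a 2-fold difference (glmTreat) with the same adjustment. It called 6476 genes, or 30.1%, more than 2-fold higher in brain and 6198, or 28.8%, more than 2-fold higher in embryo. The groups did not overlap for 45.2% of genes with brain above embryo and for 46.1% with embryo above brain. The median log2 fold change, which is brain over embryo throughout, was -0.02, with quartiles of -1.45 and 1.64. At the extremes, 80 genes had no count in any embryo library and at least 10 in every brain library, and 168 genes had the reverse.

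The labels matched the markers of each tissue in most cases. Of 16 tested markers of whole-embryo tissues, all 16 were more than 2-fold higher in embryo, with a median log2 fold change of -8.48 and a summed level of 32267 to 33746 CPM in the embryo libraries against 262 to 289 CPM in the brain libraries. In brain, the defining embryonic transcripts hbbe1.1, hbae3, he1.1 and he1.2 were at 0 to 1 counts per library. Of 12 markers of neurons, astroglia and oligodendrocytes, 10 were more than 2-fold higher in brain and 1 was more than 2-fold higher in embryo. The summed level of the 12 was 994 to 1028 CPM in embryo and 21072 to 22079 CPM in brain. The remaining marker was gfap, the glial filament protein, with counts of 2960, 3083 and 3129 in embryo and 2659, 2160 and 1865 in brain. Its levels of 121 ± 4.33 and 96.4 ± 17.1 CPM differed by less than 2-fold, with a log2 fold change of -0.33.

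**Figure D1:**
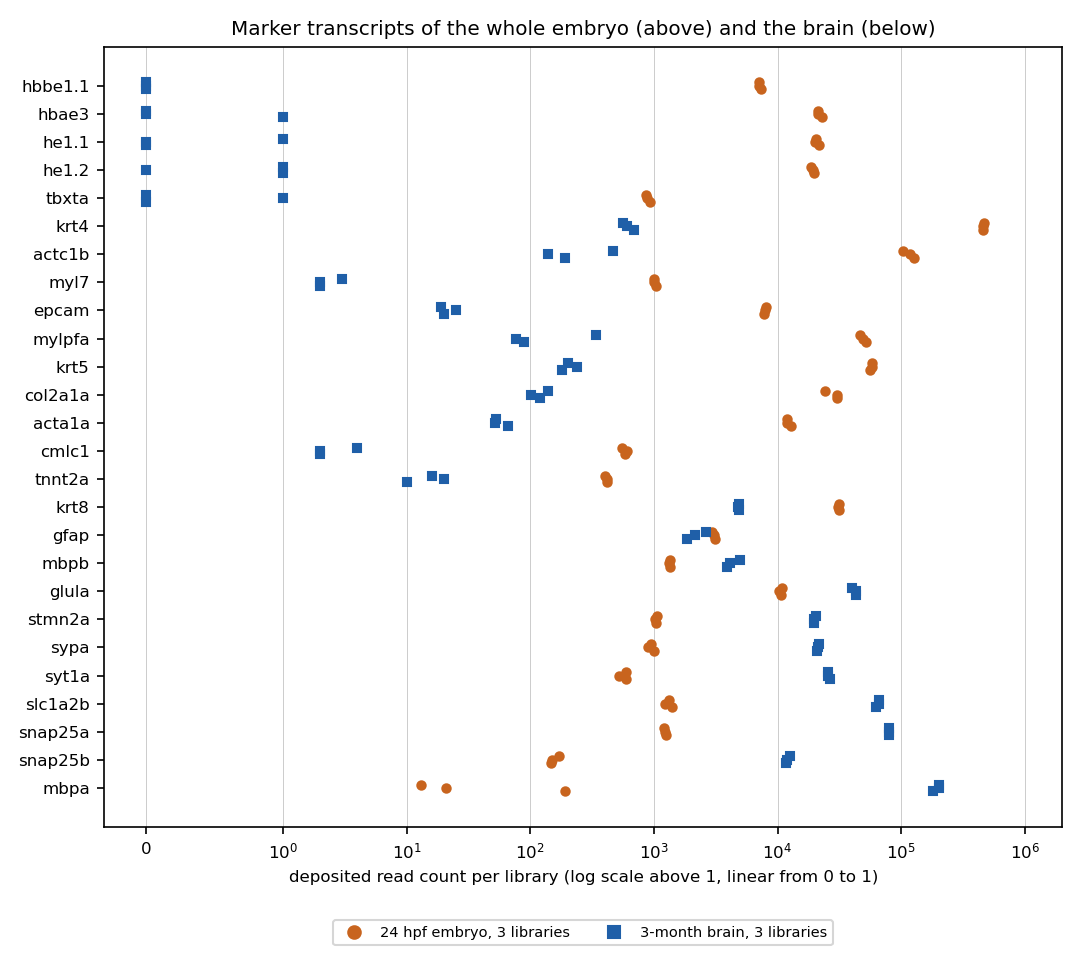
Deposited read counts per library (log axis above 1, linear from 0 to 1) of markers of whole-embryo tissues, in the upper rows, and of 10 markers of the brain, in the lower rows, with 3 embryo libraries as orange circles and 3 brain libraries as blue squares. The embryonic globin hbbe1.1 is at 0 in all 3 brain libraries, while mbpa reaches 191 counts in embryo replicate 3, above the other 2 embryo libraries, and gfap lies on the embryo side.

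The 36 lists of genes by tissue or function differed in a graded way. Neuronal, glial and adult globin lists had positive medians, and lists of embryonic tissues and of dividing cells had negative medians, while axon growth, regional patterning and blood vessel genes lay between them. Over all lists, 1184 of 1485 symbols could be tested, and a member passed the filter on low counts if it was expressed in either group, so that a member present in 1 group only had to differ. The shares of all genes to set beside each list's counts are 30.1% more than 2-fold higher in brain and 28.8% in embryo.

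**Figure D2:**
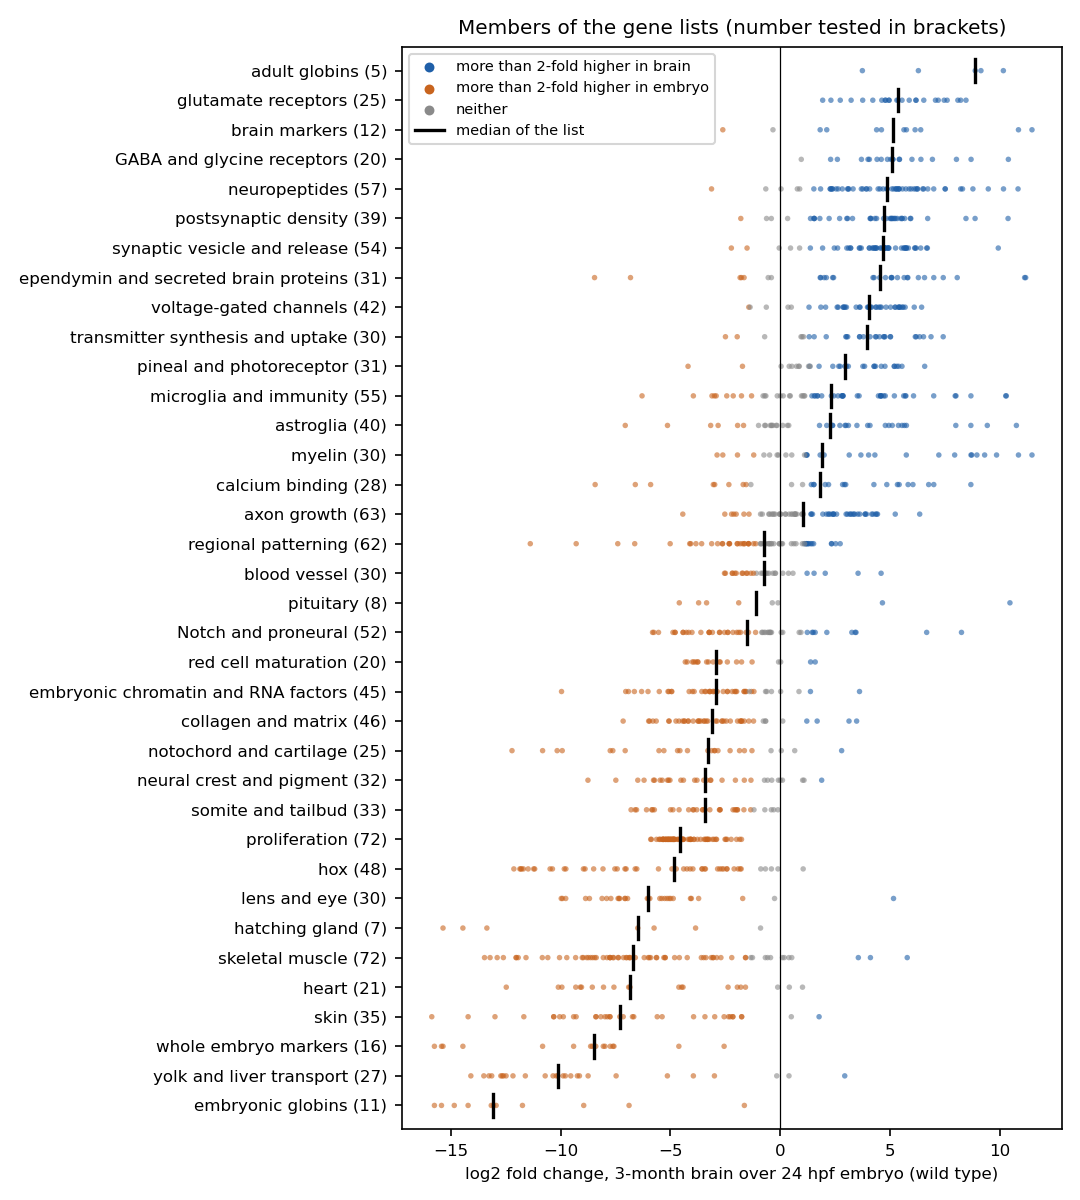
Log2 fold change, brain over embryo, of each tested member of the 36 gene lists, ordered by the list median (black bar), with blue and orange points for members more than 2-fold higher in brain and in embryo and grey points for the others. The median ranges from 8.89 for the adult globins to -13.06 for the embryonic globins, and lists such as regional patterning and astroglia spread to both sides of 0.

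Proteins of myelin gave some of the widest differences. The counts of mbpa, a myelin basic protein that compacts the sheath, were 13, 21 and 191 in the embryo libraries and 201733, 201752 and 182221 in the brain libraries. This gives 2.98 ± 4.01 CPM in embryo and 8453 ± 459 CPM in brain (mean ± SD, n = 3 each), and a log2 fold change of 11.47 (SE 0.39, adjusted p = 1.19e-12, edgeR's quasi-likelihood test). The embryo value rests largely on replicate 3, and without that library the log2 fold change was 13.60. The second copy, mbpb, was already present in embryo at 1354, 1315 and 1353 counts and stood at 4962, 4159 and 3878 counts in brain, a log2 fold change of 1.82. As a result, mbpa made up 0.991 to 12.8% of the mbp level per kb in the embryo libraries, the highest share being that of replicate 3, and 97.7 to 98.1% in the brain libraries.

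Across the myelin list, 19 of 30 tested members were more than 2-fold higher in brain and 4 more than 2-fold higher in embryo, with a median log2 fold change of 1.91. Protein zero, encoded by mpz and a component of central myelin in fish, had counts of 189, 231 and 239 in embryo and 50691, 50452 and 47915 in brain, and the membrane protein gene cd59 had 36, 33 and 55 and 18636, 19409 and 18689. The groups were far apart in both. Counts of zwi were 5, 4 and 23 in embryo and 9017, 9698 and 8765 in brain, and the log2 fold change of 9.86 became 11.07 without embryo replicate 3. The tetraspanin gene tspan2a differed less, at a log2 fold change of 3.15. Of the 4 members higher in embryo, 3 were pou3f1 (-1.94) and nkx6.2 (-1.20), transcription factors with wider roles in the developing nervous system, and cldn11b (-2.87), a tight junction protein whose duplicate cldn11a had a log2 fold change of 4.32. The nucleotide phosphodiesterase gene cnp was lower in brain by less than 2-fold, at 133 ± 3.78 CPM in embryo and 79.7 ± 4.46 CPM in brain.

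Synaptic genes were higher in brain as a group. Of 54 tested genes of synaptic vesicles and transmitter release, 49 were more than 2-fold higher in brain and 2 more than 2-fold higher in embryo, and the median log2 fold change was 4.67. The SNARE gene snap25a, whose protein drives vesicle fusion, had the third highest level among nuclear protein-coding genes higher in brain. Its counts were 1204, 1235 and 1248 in embryo and 80175, 79438 and 79176 in brain, or 48.6 ± 1.25 and 3447 ± 14.2 CPM, with a log2 fold change of 6.15 (SE 0.04, adjusted p = 1.09e-18). The spread within each group was small beside that difference. Its duplicate snap25b differed by much the same amount (6.41), and snap25a held 82.3 to 84.7% of the SNAP25 level per kb in embryo and 80.7 to 81.7% in brain, ranges that lay close to each other without overlapping.

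Other abundant members of the release machinery followed. The gene stxbp1a, whose protein binds syntaxin, had a log2 fold change of 4.07. The calcium sensor gene syt1a differed by 5.64, syt11a by 4.76 and the vesicle protein gene sypa by 4.62. Gamma-synuclein, from sncgb, had counts of 207, 227 and 286 in embryo and 23651, 21737 and 21894 in brain. The list's exceptions were recycling factors of SNARE complexes, napab (-2.22) and nsfb (-1.51), both more than 2-fold higher in embryo. The duplicate nsfa, which encodes the same ATPase as nsfb, had counts of 270, 264 and 306 in embryo and 13677, 14091 and 13526 in brain, against 964, 956 and 972 and 289, 311 and 329 for nsfb.

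Genes for making and clearing transmitters gave a median log2 fold change of 3.95, with 24 of 30 more than 2-fold higher in brain and 2 in embryo. Counts of gad2, the enzyme that makes GABA, were 356, 363 and 388 in embryo and 27087, 28623 and 27068 in brain, a log2 fold change of 6.36 (SE 0.05). The GABA transporter gene slc6a1b had a log2 fold change of 6.53 and the vesicular glutamate transporter gene slc17a6b a log2 fold change of 3.62.

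All 25 tested glutamate receptor genes were more than 2-fold higher in brain, with a median log2 fold change of 5.38. The duplicates grin1a and grin1b, which encode the obligatory subunit of the NMDA receptor, had counts of 364, 337 and 384 and 29, 23 and 39 in embryo, and of 30365, 31311 and 30819 and 9853, 10044 and 9625 in brain. Their log2 fold changes were 6.54 (SE 0.05) and 8.47 (SE 0.08), so that the copy with the lower embryonic level showed the wider difference. Among AMPA receptor subunits, gria2b differed by 7.47, gria2a by 5.38 and gria3b by 5.55, and the metabotropic receptor gene grm5a by 8.10. Receptors for GABA and glycine were more than 2-fold higher in brain for 19 of 20 genes, with log2 fold changes of 8.70 for gabrb2a and 5.04 for glra1.

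Postsynaptic and excitability genes had similar medians. Of 39 genes of the postsynaptic density, 35 were more than 2-fold higher in brain, including the kinase gene camk2b1 (3.30), the adhesion gene nrxn1a (4.72) and syngap1b (8.47), a regulator of Ras. The scaffold gene homer2 was the member more than 2-fold higher in embryo, at a log2 fold change of -1.79. Of 42 voltage-gated channel genes, 37 were more than 2-fold higher in brain, with scn1bb, a sodium channel beta subunit, at 5.57. The exception past the 2-fold test was scn4ab, a sodium channel of muscle, with counts of 195, 217 and 233 in embryo and 90, 67 and 62 in brain.

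Genes of growing axons and the neuronal cytoskeleton differed less than synaptic genes. Of 63 tested, 31 were more than 2-fold higher in brain, 7 were more than 2-fold higher in embryo and 25 were within or not shown to exceed 2-fold, and the median log2 fold change was 1.06. The microtubule-associated protein gene map1ab (6.36) and the neuronal membrane glycoprotein gene gpm6aa (4.23) were at the upper end by level, marcksl1b differed by 1.48, and tubb4b, a beta tubulin, was at 1112 ± 20.8 CPM in embryo and 850.1 ± 47.6 CPM in brain. Stathmins, which destabilize microtubules, split within a pair. Counts of stmn1a were 5278, 5261 and 5395 in embryo and 228, 211 and 234 in brain, while counts of stmn1b were 1719, 1755 and 1692 in embryo and 27833, 27601 and 29549 in brain. The log2 fold changes were -4.43 (SE 0.05) and 4.17 (SE 0.04). From 5 dpf head to 2-month brain, stmn1a differed by -0.10 (adjusted p = 0.255, edgeR's quasi-likelihood test) and stmn1b by 1.14.

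Neuropeptides and secreted proteins of the brain were higher in brain in most cases. Of 57 neuropeptide genes, 52 were more than 2-fold higher in brain and 1 in embryo, with a median of 4.87. Those with the highest levels included scg2b, a granin (6.1), adcyap1b, for the peptide PACAP (5.40), and pcsk1nl, for a precursor called proSAAS (5.27). Ependymin, from epd, is a glycoprotein of the extracellular fluid of fish brain and had the highest level of any nuclear gene among those higher in brain. Its counts were 20, 35 and 252 in embryo and 211835, 205994 and 236661 in brain, or 9448 ± 739 CPM in brain. The log2 fold change was 11.19 (SE 0.41) with all libraries and 13.07 without embryo replicate 3. The related gene epdl2 ran the other way, with 543, 538 and 592 counts in embryo and 4, 0 and 0 in brain, and without brain replicate 1, which held all 4 of its brain counts, the gene was at 0 in brain. Clusterin, from clu, was higher in brain (5.82), while sparc (-1.76), a collagen-binding protein, and vcana (-6.82), a matrix proteoglycan, were higher in embryo.

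The widest differences in favour of the brain among abundant transcripts were in genes with next to no embryonic reads. Counts of eef1a2, an elongation factor of neurons and muscle, were 0, 0 and 1 in embryo and 2164, 2167 and 2205 in brain. The ratio of normalised counts was 7108 with a 95% counting interval of 1285 to 282876. The general form eef1a1l1 had the second highest level among genes higher in embryo, at 10416 ± 164 CPM, against 1801 ± 84.8 CPM in brain (log2 fold change -2.53). For crp1 the counts were 0, 1 and 0 in embryo and 1541, 1634 and 1570 in brain, a ratio of 5198 with an interval of 933 to 205373. For cbln12, a cerebellin-type gene by its symbol, they were 0, 2 and 1 and 2395, 2243 and 2341, a ratio of 2542 with an interval of 872 to 12362. These intervals cover counting error only.

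Activity and hormone genes stood among the same extremes. The counts of npas4a, a transcription factor gene that neuronal activity induces in mammals, were 1, 5 and 17 in embryo and 12701, 12034 and 15433 in brain, with a log2 fold change of 10.88, or 12.18 without embryo replicate 3. For stxbp6l, a relative of a SNARE-binding gene by its symbol, they were 7, 7 and 20 and 18103, 18637 and 18057, with log2 fold changes of 10.77 and, without that library, 11.44. The brain aromatase gene cyp19a1b, which makes oestrogen in radial glia of fish, had counts of 15, 12 and 36 in embryo and 31853, 34712 and 33996 in brain, with log2 fold changes of 10.76 and 11.39. In all of these the highest embryo count was that of replicate 3.

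Genes of astroglia and radial glia were divided. Of 40 tested, 22 were more than 2-fold higher in brain and 6 in embryo, with a median of 2.25. By the test without a fold limit, 24 were higher in brain and 15 in embryo, against 45.0% and 45.8% of all genes. The glutamate transporter gene slc1a2b had counts of 1327, 1227 and 1403 in embryo and 66339, 65833 and 62800 in brain (log2 fold change 5.75). Higher in brain were also the aldolase gene aldocb (5.39), the creatine kinase gene ckbb (4.79), the glutamine synthetase gene glula (2.12), the fatty acid-binding protein gene fabp7a (3.50) and s100b (8.69), which encodes a calcium-binding protein. The duplicate of glula was higher in embryo by less than 2-fold. Members higher in embryo included the progenitor filament gene nes (-1.94), the inhibitor of differentiation gene id3 (-1.67) and atp1a2a (-7.05), a sodium pump subunit with counts of 2379, 2597 and 2648 in embryo and 14, 17 and 21 in brain. Another pair of glutamate transporters split, with slc1a3a at 4916, 5024 and 5204 counts in embryo and 533, 489 and 521 in brain, and slc1a3b at 81, 76 and 69 in embryo and 2299, 2481 and 2353 in brain.

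Immune genes were also divided. Of 55 genes of microglia and immunity, 34 were more than 2-fold higher in brain and 9 in embryo, with a median of 2.33, while the summed level was higher in embryo, at 6078 to 6261 CPM against 2155 to 2395 CPM. Counts of cd74a, the invariant chain of MHC class II, were 4, 4 and 9 in embryo and 6821, 6311 and 6931 in brain (log2 fold change 10.30, SE 0.11), and b2ml, a beta-2 microglobulin gene, differed by 4.59. The embryo's summed level came mainly from apolipoproteins, apoeb at 3017 ± 68.8 CPM against 195 ± 10.5 CPM in brain and apoc1 at 1761 ± 1.39 against 221 ± 30.2 CPM, which the yolk syncytial layer of the embryo also expresses. The cathepsin gene ctss2.1 was higher in embryo as well (-6.29).

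Vessel genes were divided, with more of them higher in embryo. By the test without a fold limit, 21 of 30 were higher in embryo and 7 in brain, against 45.8% and 45.0% of all genes. Of 30 tested, 5 (16.7%) were more than 2-fold higher in brain and 12 (40.0%) in embryo, with a median of -0.74. The shares of all genes were 30.1% and 28.8%. The endothelial cadherin gene cdh5 was at 1787, 1701 and 1660 counts in embryo and 554, 583 and 527 in brain, a log2 fold change of -1.50. The lipid transporter gene mfsd2aa, active at the blood-brain barrier, was higher in brain, with 122, 136 and 122 and 1290, 1327 and 1451 counts and a log2 fold change of 3.55.

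The brain libraries held transcripts of the pineal organ and few of the pituitary. Of 31 pineal and photoreceptor genes, 21 were more than 2-fold higher in brain, with a summed level of 295 to 343 CPM against 40.1 to 41.5 CPM in embryo. The pineal opsin gene exorh had 62, 49 and 43 counts in embryo and 2465, 1937 and 2206 in brain, the retinoid-binding protein gene rbp3 14, 21 and 16 and 684, 609 and 571, and asmt, the last enzyme of melatonin synthesis, 7, 7 and 17 and 400, 323 and 326. Of 8 tested pituitary genes, 2 were more than 2-fold higher in brain and 4 in embryo. Prolactin, from prl, had counts of 54, 48 and 58 in embryo and 5, 6 and 3 in brain, while prl2 was at 0 in all 3 embryo libraries and at 193, 99 and 215 counts in brain, at least 61.7-fold higher at a floor of 3 counts per library. The pituitary and lens factor genes pitx1 (-4.59) and pitx3 (-3.71) were higher in embryo.

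On the embryonic side, the 10 genes with the highest levels included transcripts of skin (krt4), muscle (atp2a1 and actc1b) and lipid transport from the yolk (apobb.1 and apoa1a), beside widely expressed genes such as eef1a1l1 and hmga1a. The keratin gene krt4, expressed in the outer layer of the skin, had the highest level of all genes higher in embryo. Its counts were 468394, 455570 and 456057 in embryo and 558, 607 and 690 in brain, or 18180.4 ± 183 and 26.8 ± 2.99 CPM, with a log2 fold change of -9.41 (SE 0.08, adjusted p = 2.03e-18). Of 35 skin genes, 33 were more than 2-fold higher in embryo. The keratin gene krt92 had 7899, 7832 and 7719 counts in embryo and 0 in every brain library, at least 2378-fold higher, and cyt1 varied more among embryo libraries than other keratins, at 46266, 29621 and 43111 counts. For krt8, expressed in simple epithelia, brain was not at background, with 4878, 4791 and 4864 counts and a log2 fold change of -2.55.

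Skeletal muscle genes were more than 2-fold higher in embryo for 60 of 72 tested, with a median log2 fold change of -6.71 and a summed level of 35696 to 40239.7 CPM against 750.2 to 879 CPM in brain. The calcium pump of the sarcoplasmic reticulum, from atp2a1, had counts of 107895, 123818 and 132479 in embryo and 35, 29 and 15 in brain (log2 fold change -12.03), and the fast myosin gene myhz1.1 had 68159, 73204 and 70517 and 19, 21 and 23. The actin gene actc1c was at 10905, 11505 and 12875 counts in embryo and at 0 in all 3 brain libraries, at least 3580.1-fold higher. Some muscle transcripts with more brain reads, though not all, were highest in brain replicate 1. Without that library the log2 fold change became -9.32 from -8.63 for actc1b, -9.07 from -8.05 for the myosin light chain gene mylpfa and -9.94 from -8.96 for the creatine kinase gene ckmb. The near-identical copies in these families can share reads, so that single members are uncertain.

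Heart, notochord and lens transcripts followed the same direction. Of 21 heart genes, 18 were more than 2-fold higher in embryo, with a median of -6.84 as fitted and of -5.29 with members at or near 0 in brain set to their bound or ratio. The cardiac myosin light chain gene myl7 had 1005, 995 and 1032 counts in embryo and 3, 2 and 2 in brain, and the transcription factor gene gata5 had 772, 696 and 764 and 0, at least 226-fold higher. The list held 2 members higher in brain by the test without a fold limit and none by the 2-fold test, and the more abundant was mef2cb, at 41.6 ± 2.8 CPM in embryo and 55.7 ± 1.55 CPM in brain, a difference of less than 2-fold. Of 25 notochord and cartilage genes, 21 were more than 2-fold higher in embryo, among them col2a1a (-7.74), for collagen type II, hapln1a (-5.52) and cmn, the calymmin of the notochord sheath, with 10153, 11408 and 11505 counts in embryo and 1, 2 and 3 in brain. Of 30 lens genes, 28 were more than 2-fold higher in embryo, with crybb1l1, a crystallin, at -7.08, and cryabb, a crystallin of the small heat shock family, was more than 2-fold higher in brain (5.17).

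Transcripts of the yolk syncytial layer and liver gave the lowest median after the embryonic globins. Of 27 tested, 24 were more than 2-fold higher in embryo and 1 in brain, with a median of -10.12. Counts of apobb.1, a form of apolipoprotein B, were 274371, 264134 and 250824 in embryo and 13, 13 and 15 in brain, a log2 fold change of -14.09 (SE 0.08). The apolipoprotein gene apoa1a had a log2 fold change of -12.48 and the transferrin gene tfa a log2 fold change of -7.47. In the hatching gland, he1.1 and he1.2, for enzymes that digest the egg envelope, had counts of 20628, 20184 and 21581 and 18770, 19277 and 19788 in embryo and of 1, 0 and 0 and 1, 0 and 1 in brain. The third copy, he1.3, was at 1379, 1388 and 1351 in embryo and 0 in brain, at least 418-fold higher.

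Collagen and matrix genes were more than 2-fold higher in embryo for 38 of 46 tested. The log2 fold change of col1a1a was -4.60 (SE 0.43) and became -5.72 without brain replicate 1, and that of col1a2 was -4.18 and became -4.74. The proteoglycan gene bgnb was higher in brain, with 47, 50 and 45 counts in embryo and 483, 469 and 503 in brain. Of 32 neural crest and pigment genes, 23 were more than 2-fold higher in embryo, including gch2 (-6.20), for pteridine pigment, and the melanin genes pmela (-6.48) and dct (-7.48), and tfap2b, a transcription factor gene, was more than 2-fold higher in brain (1.89).

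Every gene of the proliferation list was more than 2-fold higher in embryo, 72 of 72 tested against 28.8% of all genes, with a median log2 fold change of -4.56. Counts of mki67, a marker of cycling cells, were 26135, 25613 and 24488 in embryo and 656, 507 and 570 in brain, a log2 fold change of -5.33 (SE 0.07). The replication genes pcna (-3.93) and mcm2 (-4.91), the cyclin gene ccnd1 (-4.08) and the topoisomerase gene top2a (-4.59) were of the same order. The transcripts were not absent from brain, where pcna had 1159, 1213 and 1294 counts. From 5 dpf head to 2-month brain the same list had a median of -0.06, with 0 of its genes more than 2-fold higher in brain and 1 in head.

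Chromatin and RNA factors of early embryos were more than 2-fold higher in embryo for 37 of 45 genes. The chromatin protein gene hmga1a was among the most abundant, with counts of 158789, 152577 and 157453 in embryo and 4864, 4288 and 4689 in brain, or 6176 ± 127 and 199.8 ± 12.8 CPM. Its duplicate hmga1b ran the other way, at 324, 325 and 368 in embryo and 3956, 3880 and 3559 in brain. Their log2 fold changes were -4.95 and 3.62. The other member more than 2-fold higher in brain was dnmt3ab, for a DNA methyltransferase (1.38), and khdrbs1a, for an RNA-binding protein, was higher in embryo (-1.57).

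Hox genes, which pattern the body axis from the hindbrain backwards, were more than 2-fold higher in embryo for 43 of 48 tested and in brain for none, while 1 was higher in brain by the test without a fold limit. The median was -4.83, or -4.32 with the genes at or near 0 in brain at their bound or ratio. Anterior members kept a brain level, hoxb3a with 2709, 2641 and 2629 counts in embryo and 387, 331 and 366 in brain and hoxa3a with 2166, 2090 and 2086 and 368, 287 and 266. The more posterior hoxb9a had 1699, 1593 and 1656 counts in embryo and 15, 8 and 3 in brain. Brain levels of hox genes varied between libraries, hoxb8a having 168, 103 and 38 counts in brain replicates 1, 2 and 3, and the gene higher in brain, hoxc5a, having 149, 91 and 131 in embryo and 330, 234 and 138 in brain. Somite and tailbud genes were more than 2-fold higher in embryo for 28 of 33, such as the clock gene her12 (-5.81) and the Delta ligand gene dld (-4.88), while aldh1a2, for the retinoic acid enzyme, differed by less than 2-fold (-0.70).

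Genes that build the nervous system divided between the groups. Of 52 Notch and proneural genes, 10 (19.2%) were more than 2-fold higher in brain and 28 (53.8%) in embryo, against 30.1% and 28.8% of all genes. The receptor gene notch1a (-3.61) and the ligand gene dla (-4.01) were higher in embryo. The bHLH factors of later neuronal differentiation were higher in brain, neurod1 at 945, 969 and 896 counts in embryo and 8838, 7898 and 7962 in brain, neurod6a at 23, 18 and 18 and 1964, 1890 and 1691, and neurod2 at 1, 3 and 2 and 622, 590 and 579. The SoxC factors sox4a and sox11a took opposite directions, with log2 fold changes of 1.46 and -1.44.

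Regional patterning genes had a median of -0.72, with 13 of 62 more than 2-fold higher in brain and 27 in embryo. The summed level of the patterning genes was 2010.4 to 2056 CPM in embryo and 2063 to 2227 CPM in brain. The zinc finger genes zic1 (1.19) and zic2a (1.45), expressed in the cerebellum and dorsal brain, and the pallial gene eomesa (2.35) were higher in brain, and pax6a (-1.94), expressed in eye and neural tube, was higher in embryo. Among SoxB1 factors of neural progenitors, sox19a (-3.06) and sox3 (-2.94) were more than 2-fold higher in embryo, while sox2 was at 137 ± 3.56 CPM in embryo and 86.7 ± 5.0 CPM in brain.

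The exchange between embryonic and adult globins was nearly complete. The globin genes lie in 2 clusters in the build of the count table, on chromosome 3 with adult and embryonic genes side by side, from hbba2 at chr3:55091230-55092051 to hbae3 at chr3:55146418-55147788, and on chromosome 12, with embryonic or larval genes from hbae4 at chr12:20336070-20337274 onwards. All 11 embryonic globin genes were more than 2-fold higher in embryo. Their summed level was 2386 to 2615 CPM in embryo and 1.87 to 2.59 CPM in brain, most of the latter being hbae4, with 177, 147 and 195 counts in embryo and 58, 57 and 38 in brain. Counts of hbae3 were 21216, 21356 and 22890 in embryo and 0, 0 and 1 in brain, and counts of hbbe3 were 14114, 14395 and 15200 and 0, 1 and 0. The genes hbbe1.1, hbae1.1 and hbae1.2 were at 0 in all brain libraries, and so at least 2188-fold, 364-fold and 339-fold higher in embryo. The median log2 fold change of the list was -13.06 as fitted and -11.10 with such genes at their bound or ratio.

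All 5 adult globin genes were more than 2-fold higher in brain. Counts of hbaa1 were 9, 6 and 12 in embryo and 3582, 5013 and 3255 in brain, a log2 fold change of 8.89 (SE 0.25, adjusted p = 1.16e-13). Both genes that carry the symbol hbba1, at chr3:55103445-55104310 and chr3:55098457-55099272, showed the same order, with 0, 2 and 10 and with 2, 1 and 8 counts in embryo against 3916, 5585 and 3529 and against 1818, 2477 and 1607 in brain. The log2 fold changes of 10.17 and 9.15 became 12.03 and 10.36 without embryo replicate 3. Brain replicate 2 was highest for hbaa1 and both hbba1 genes. Within the embryo, hbba2 had the highest counts of the adult forms, 15, 18 and 34, against 283, 294 and 249 in brain. Adult forms made up 0.0449 to 0.121% of the beta globin level per kb in the embryo libraries and 99.9 to 100% in the brain libraries, and 0.0302 to 0.0525% and 98.7 to 99% of the alpha globin level. The adults had been bled before dissection, and the source of the globin reads in the brain libraries was not tested.

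**Figure D3:**
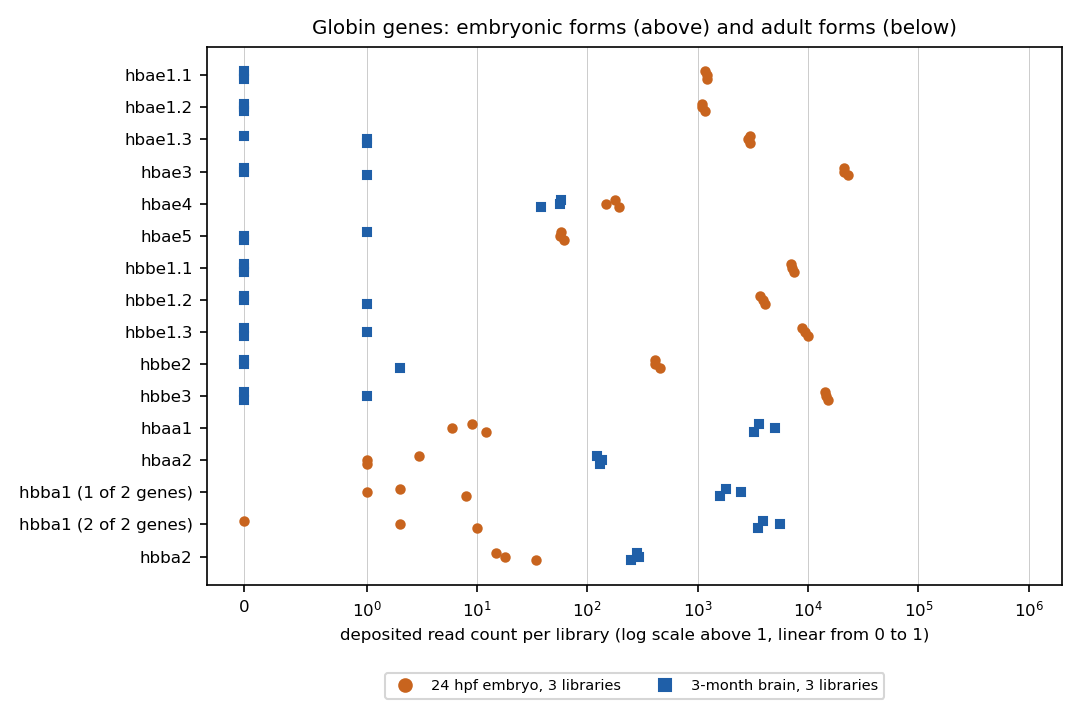
Deposited read counts per library (log axis above 1, linear from 0 to 1) of the 11 embryonic globin genes, in the upper rows, and the 5 adult globin genes, in the lower rows, with embryo libraries as orange circles and brain libraries as blue squares. Each embryonic gene except hbae4 has 0 to 2 counts in every brain library, and the adult genes have 0 to 34 counts in every embryo library.

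Other red cell genes did not follow the adult globins. Of 20 tested, 16 were more than 2-fold higher in embryo and 2 in brain. The heme synthesis gene alas2 had 2511, 2578 and 2488 counts in embryo and 817, 1360 and 677 in brain, with replicate 2 highest among the brains as for hbaa1, and sptb, for erythroid spectrin, had a log2 fold change of -4.0. The carbonic anhydrase gene cahz (1.6) and tal1 (1.39), a transcription factor gene of blood that some neurons also express in vertebrates, were the members higher in brain.

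Sets of genes that serve the same function at different times or in different cells were followed through the share of the later, or neuronal, form in the set's level per kb. In 23 of 29 sets the share was higher in brain, and in 6 it was lower. The 3 embryo and 3 brain shares did not overlap in any set, and the exact permutation test gave p = 0.1 for each, the smallest value that 3 libraries against 3 allow. The forms were assigned from knowledge of vertebrates, mostly mammals, and a low later share can also come from tissues other than the nervous system in the whole embryo.

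The 6 sets with a lower later share in brain were the alpha subunits of the glycine receptor, from 92.8 to 94.0% in embryo to 69.3 to 69.8% in brain, cytochrome oxidase, from 99.4 to 99.5% to 81.6 to 83.4%, the linker histones, from 90.5 to 90.9% to 76.4 to 80.4%, the lactate dehydrogenases, from 83.0 to 83.9% to 74.1 to 74.5%, the SS18 subunits of the BAF complex, from 18.3 to 21.6% to 15.5 to 16.6%, and SNAP25. The enolases moved in part, from 4.52 to 5.08% to 39.9 to 40.6%.

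**Figure D4:**
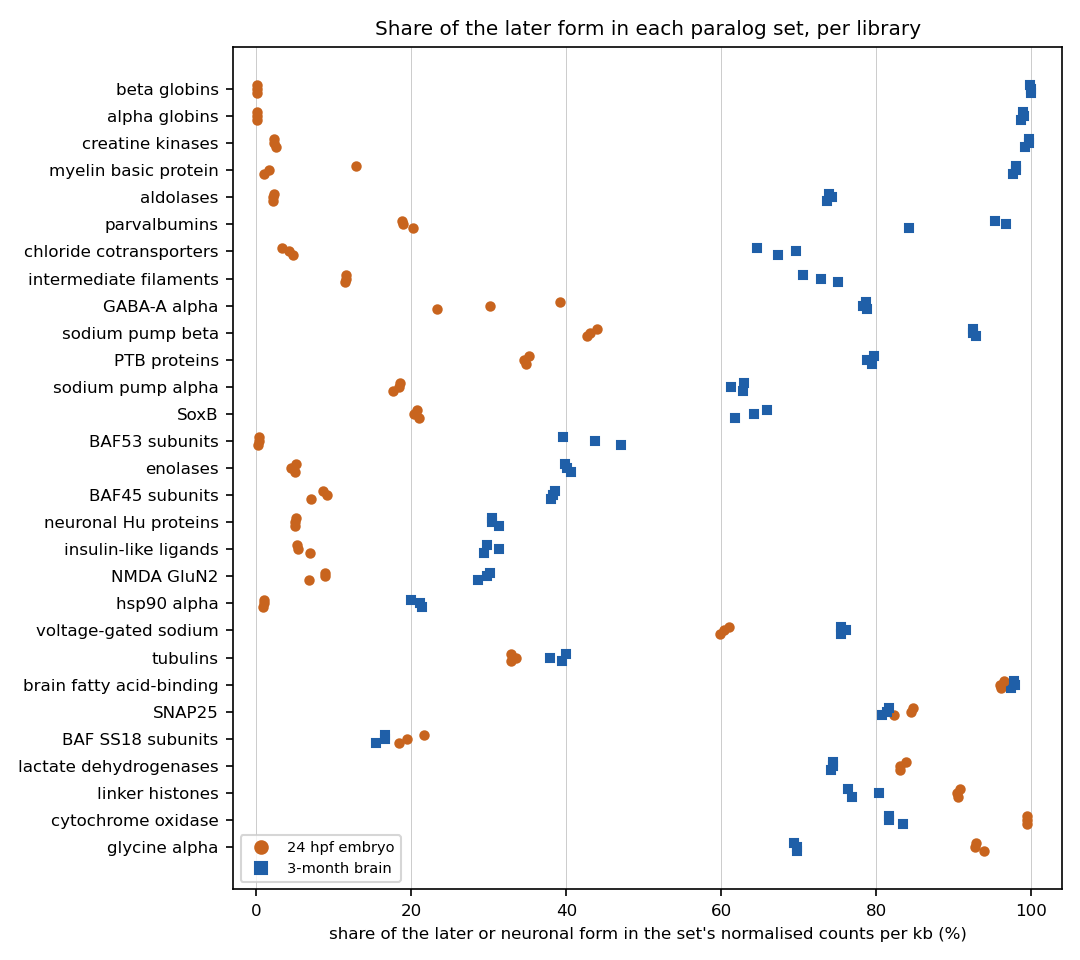
Share (%) of the later or neuronal form in the normalised counts per kb of each of 29 paralog sets, with 3 embryo libraries as orange circles and 3 brain libraries as blue squares, ordered by the difference. The beta globins go from at most 0.121% to at least 99.9%, the SNAP25 set lies near 80% in both groups, and the 6 sets at the foot have lower shares in brain.

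Among enzymes of energy metabolism, creatine kinases and aldolases showed the widest exchange. The brain creatine kinases ckba and ckbb held 2.25 to 2.5% of the creatine kinase level in embryo and 99.2 to 99.7% in brain, though ckba itself was lower in brain (-2.08). Among aldolases, the brain forms aldoca and aldocb held 2.08 to 2.29% in embryo and 73.7 to 74.3% in brain. Counts of aldoca were 5, 4 and 8 in embryo and 3826, 4028 and 3157 in brain, while the muscle form aldoab (-6.85) was lower in brain. The ubiquitous aldoaa was the named gene that could not be told to differ, at 484 ± 0.325 CPM in embryo and 506 ± 6.66 CPM in brain (adjusted p = 0.0884, edgeR's quasi-likelihood test). Its log2 fold change was 0.06 here and -0.01 in a fit of all 18 libraries of the table.

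Ion transport sets moved as well. KCC2, from slc12a5a and slc12a5b, extrudes chloride from mature neurons, and it held 3.28 to 4.77% of the level in embryo and 64.7 to 69.6% in brain relative to slc12a2, which loads chloride. Counts of slc12a5b were 69, 53 and 53 in embryo and 4957, 5519 and 4749 in brain, while slc12a2 was itself slightly higher in brain, at 2036, 2014 and 2051 and 2885, 2786 and 2880 counts. The sodium pump's neuronal catalytic subunit genes atp1a3a (5.16) and atp1a3b (6.36) were higher in brain, as was atp1a1b (4.82) from the other side of the set, and the later share went from 17.7 to 18.5% to 61.2 to 63%. For the beta subunit, atp1b2a (4.04) was higher in brain and atp1b1a (-0.68) lower.

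Nuclear regulators that mammalian progenitors exchange on becoming neurons moved in part. In the BAF chromatin remodeller, actl6a had counts of 3324, 3279 and 3349 in embryo and 627, 706 and 793 in brain, and its neuronal counterpart actl6b had 6, 7 and 9 and 428, 421 and 400, so that the share of actl6b went from 0.234 to 0.349% to 39.6 to 47%. For the PHD-finger subunits, dpf1 (2.06) and dpf3 (0.97) were higher in brain and phf10 (-1.33) and dpf2l (-1.37) lower. The splicing repressor genes ptbp1a (-3.39) and ptbp1b (-3.41) were more than 2-fold lower in brain, and the neuronal forms ptbp2a (-0.94) and ptbp2b (-0.41) were also lower, but by less, which gave them 34.6 to 35.2% of the level in embryo and 78.9 to 79.7% in brain. Among the neuronal Hu proteins, elavl3 differed by 0.98 and elavl4 by 3.36.

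Filaments, calcium buffers and chaperones gave further cases. The neurofilament genes nefla, at 10, 13 and 11 counts in embryo and 6402, 5729 and 5687 in brain, and nefma (5.64), with inaa (5.24), raised the neuronal and glial share of intermediate filaments from 11.4 to 11.6% to 70.6 to 75.1%, while vim was at 71.3 ± 2.19 CPM in embryo and 89.8 ± 5.12 CPM in brain. Parvalbumins of muscle, pvalb1 and pvalb2, had counts of 4815, 5261 and 5561 and 10532, 11041 and 12269 in embryo and of 164, 27 and 48 and 238, 26 and 55 in brain, again highest in brain replicate 1, without which the log2 fold changes became -6.97 from -5.90 and -7.98 from -6.60. The brain parvalbumins pvalb6 and pvalb7 had log2 fold changes of 6.77 and 6.05, whereas pvalb9, placed with the later forms, was lower in brain (-8.43). Of the Hsp90 chaperones, hsp90aa1.1, which muscle uses to fold myosin, had 18296, 19082 and 18573 counts in embryo and 3, 5 and 4 in brain, hsp90aa1.2 was higher in brain (3.44) and hsp90ab1 lower (-0.95).

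Across the table, 1863 pairs of genes whose symbols differ only in a final a and b had both members tested. By the test without a fold limit, 610 pairs (32.7%) were higher in brain in both members and 548 (29.4%) were higher in embryo in both. Another 496 pairs, or 26.6%, were called in opposite directions. Of all genes, 45.0% were called higher in brain and 45.8% higher in embryo. By the 2-fold test, 367 pairs (19.7%) were higher in brain in both members, 294 (15.8%) were higher in embryo in both and 170, or 9.13%, were opposite. The shares of all genes by that test were 30.1% and 28.8%. Unrelated genes with such shares would often be opposite too, and these pairs were not compared with random pairs. The members of a pair differed in log2 fold change by a median of 1.66. Symbols alone define these pairs, so that some may not be duplicates from the genome doubling.

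In 113 of the 170 opposite pairs, each member reached a mean of 5 CPM in either group, and in 65 of these the member with the higher level per kb changed between embryo and brain. In 274 of 1863 pairs (14.7%), a exceeded b per kb in every embryo library and b exceeded a in every brain library. The reverse held in 256 (13.7%). With each member at 5 CPM or more, 458 pairs showed such a change, so that it was not confined to opposite pairs. Another 115 pairs (6.17%) had a member at 0 in some library and could not be classed. None of them is counted as a change, so that these counts, the 65 included, are lower limits. Among the opposite pairs with the widest difference were the sugar transporters slc2a11a and slc2a11b, with slc2a11a at 2, 0 and 0 counts in embryo and 186, 211 and 211 in brain and slc2a11b at 1268, 1282 and 1269 and 25, 27 and 24. The tight junction genes cldn7a, at 10, 3 and 10 and 481, 473 and 453, and cldn7b, at 2572, 2550 and 2694 and 21, 32 and 14, were as far apart. The counts did not overlap between groups for any of these 4 genes. The same held for 45.2% of all genes with brain above embryo and for 46.1% with embryo above brain.

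Other pairs were split in the same manner. The LIM protein gene csrp1a had 1118, 1211 and 1148 counts in embryo and 106, 114 and 110 in brain, and csrp1b had 0, 0 and 6 and 1254, 1241 and 1245, all of its embryo reads being in replicate 3. The muscle glycogen phosphorylase gene pygma had a log2 fold change of -7.91 and its duplicate pygmb of 2.27. The retinoic acid-binding protein genes were crabp1a (8.60) and crabp1b (-1.48), and the protease genes tmprss4a (-6.79) and tmprss4b (4.51). Further pairs of this kind were dok1a (-7.37, or -8.21 without brain replicate 1) and dok1b (3.44), for adaptor proteins, tm6sf2a (-9.26) and tm6sf2b (1.35), for proteins of lipid export, and fgfbp1a (6.97, or 8.08 without embryo replicate 1) and fgfbp1b (-5.28), for proteins that bind fibroblast growth factors.

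**Figure D5:**
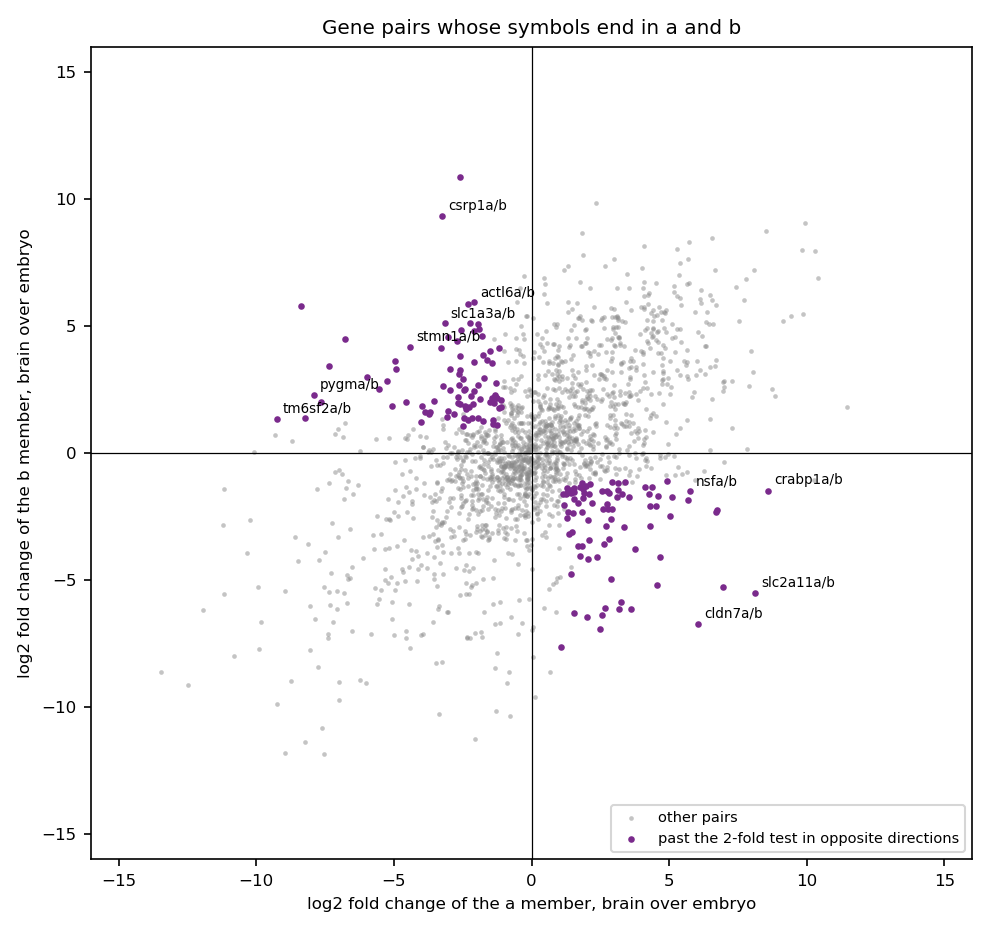
Log2 fold change, brain over embryo, of the a member (horizontal axis) and the b member (vertical axis) of each of 1863 gene pairs, with the 170 pairs that passed the 2-fold test in opposite directions in purple. The opposite pairs lie in the upper left and lower right corners, where cldn7a/b sits at 6.04 and -6.73.

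The same comparison in sgsh fish shares no library with the wild-type comparison. By the test without a fold limit 89.4% of genes differed there, 44.1% being higher in brain. It called 12628 genes more than 2-fold different, 58.6% of those tested, against 12674 or 58.9% in wild type, and 11775 were called in both, which is 93.2% of the sgsh calls and 92.9% of the wild-type calls. Of these, 11772 had the same direction and 3 the opposite. Of the 113 opposite pairs, 101 were also opposite by the 2-fold test in sgsh fish. An interaction test of genotype and stage called 8.20% of 22154 genes at an adjusted p under 0.05.

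Another wild-type comparison, of 2-month brain against 5 dpf head, starts from a head that already holds a larval brain. By the test without a fold limit 79.4% of genes differed, 38.2% being higher in brain and 41.2% in head. It called 31.4% of genes more than 2-fold different, 8.20% being higher in brain and 23.2% higher in head. The synaptic vesicle list, with 49 of 54 genes more than 2-fold higher in brain above, had 17 higher in brain and 6 in head, and a median of 0.74. The myelin list had 18 higher in brain and 1 in head, with a median of 1.68. Of the 48 hox genes only 24 were tested here, with 0 more than 2-fold higher in brain, 4 in head and a median of 0.03. The immune list had a median of -0.63 and the pineal and photoreceptor list one of -4.47. A larval head holds the eyes, and their part in these values was not tested. Of the 113 opposite pairs, 11 were opposite by the 2-fold test and 61 by the test without a fold limit. A pair was counted whichever member was higher in brain, so that its members need not keep the directions given above. These values come from another count table with its own processing, and the difference between the comparisons was not tested.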

How the data were processed

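Poly-A or ribosomal selection is not given in the sources used here. Per the labels, total RNA was extracted with TRIzol and sequenced as 150 bp paired-end DNBSEQ libraries. The authors deposited raw read counts per gene, without normalization, in a table of 18 libraries, with STAR and featureCounts on the label, while the submitters' processing notes also list HISAT2, Bowtie2, RSEM and the build GRCz11. Strand setting and filters for this table are not given in the sources used here, so that reads of overlapping or near-identical genes cannot be told apart. The 5 dpf and 2-month libraries were counted with featureCounts 2.0.1.

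Counts were analysed in R 4.3.3. Genes passing filterByExpr (minimum count 10, minimum total 15) were scaled by TMM. The quasi-likelihood test came from edgeR 4.0.16, as did glmTreat against a log2 fold change of 1, with Benjamini-Hochberg adjustment over all genes tested and a threshold of 0.05. CPM are TMM-scaled. The self-test on simulated counts, in which few genes were changed, recovered most of the widest changes it was made with. In these data 90.8% of genes differed, a setting that the self-test did not cover. Duplicate libraries were looked for with a chi-square per gene, which was 2.12 to 5.13 between libraries of a group, and none was found. The deepest and shallowest library differ little in depth, and a gene at 0 has a floor of 3 counts per library, 0.118 to 0.130 CPM, which covers counting error only.

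The members and lists were chosen with earlier results of these data known, so that no list serves as independent support. Named are sgsh, the 10 widest differences with a symbol and at least 50 CPM and the 10 most abundant genes in each direction, up to 6 abundant members of each list and those against its direction, members of 29 paralog sets, and the 10 widest opposite pairs, of which a selection is given. The 35 brain transcripts were those with a log2 fold change above 9 and at least 50 CPM in the sgsh libraries, and the 138 embryo transcripts were those below -9 by the same rule. Alternatives were DESeq2 1.42.0, RLE, upper-quartile and no scaling factors, TMM without the 10 most abundant genes, other count filters, a fit of all 18 libraries, a replicate block and each library left out. Counts per list without embryo replicate 3 and without brain replicate 1 were added after the data were seen. The fit of all 18 libraries also took in the 18-month brains of wild-type and sgsh fish. The other libraries of the series were not used here, apart from those named. A few genes that the rules name are not reported here.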

Additional observations from a re-analysis of the deposited data

Results flagged for a closer look

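The difference between 3-month brain and 24 hpf embryo was not the same size in wild-type and sgsh fish for 19 of 230 tested genes named here, or 8.26%, against 8.20% of all genes, by the interaction test of edgeR with an adjusted p under 0.05. All values are log2, the interaction being sgsh minus wild type, with 3 libraries in each of the 4 groups. The widest were the melanin genes, with interactions of 3.58 for pmela (-6.48 in wild type, -2.92 in sgsh fish) and 2.23 for dct (-7.48 in wild type, -5.27 in sgsh fish), with adjusted p values of 5.73e-07 and 3.78e-05 by edgeR. For the muscle genes, which brain replicate 1 of the wild type carried in excess, interactions were -1.81 for pvalb1 (-5.90 in wild type, -7.72 in sgsh fish) and -1.22 for actc1b (-8.63 in wild type, -9.87 in sgsh fish), and without that library the wild-type values were -6.97 and -9.32. The interaction was not refitted without it. For sgsh, the mutated gene, the interaction was -0.87 (-0.88 in wild type, -1.77 in sgsh fish). Synaptic and transporter genes had interactions of -0.84 for grin1b (8.47 in wild type, 7.61 in sgsh fish), -0.58 for gria2b (7.47 in wild type, 6.88 in sgsh fish), -0.71 for slc1a3b (5.11 in wild type, 4.38 in sgsh fish), -0.28 for slc1a2b (5.75 in wild type, 5.46 in sgsh fish), -0.53 for slc6a1b (6.53 in wild type, 5.99 in sgsh fish) and -0.30 for nsfa (5.75 in wild type, 5.43 in sgsh fish). For enzymes of glucose metabolism they were -0.54 for aldoab (-6.85 in wild type, -7.40 in sgsh fish), -0.25 for aldocb (5.39 in wild type, 5.12 in sgsh fish) and -0.35 for pygmb (2.27 in wild type, 1.90 in sgsh fish). The remaining interactions were -0.58 for hsp90aa1.2 (3.44 in wild type, 2.85 in sgsh fish), 0.48 for apoeb (-3.95 in wild type, -3.49 in sgsh fish), -0.46 for sox3 (-2.94 in wild type, -3.41 in sgsh fish), 0.26 for ptbp1a (-3.39 in wild type, -3.15 in sgsh fish) and 0.24 for slc12a2 (0.62 in wild type, 0.84 in sgsh fish). Each of these genes was called in the same direction in both genotypes. With 3 libraries in each group, no search for outlying libraries within a group was run beyond the traces of the other tissue described above.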

How the results depend on the processing

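The 4 counts of genes and the count of opposite pairs stayed within 1.5 times of their values under all 15 alternatives. Genes higher in brain by the test without a fold limit numbered 7768 to 10512 under the alternatives other than leaving out a library, and genes higher in embryo 7783 to 10739. The lower ends came from requiring at least 10 counts in every library and the upper ends from no filter, which test 17301 and 28496 genes. By the 2-fold test the ranges were 4648 to 7055 and 4243 to 6793, and opposite pairs numbered 396 to 515. DESeq2 called 9392 and 9529 genes, and 5859 and 5578 by the 2-fold test. Leaving out each library in turn gave 9658 to 9792 genes higher in brain, 9740 to 9920 higher in embryo, 6495 to 6579 and 6165 to 6258 by the 2-fold test, and 478 to 495 pairs. Replicate numbers did not pair the libraries, since deviations of same-numbered libraries had correlations of -0.02, 0.02 and 0.02, and the replicate block gave 9640 and 9822 genes, 6465 and 6175 by the 2-fold test, and 491 pairs. Scaling moved the median of all genes by at most 0.07 on the log2 scale. Of the named genes, aldoaa alone changed its direction or its call by the test without a fold limit, wherever the gene was tested. Named genes that an alternative left out were not followed in it. Requiring at least 10 counts in every library left out those at or near 0 in a group. Calls of named genes by the 2-fold test were not followed across the alternatives. Leaving out a library moved the size of several differences with few reads in the lower group, many of them given beside the genes above. The log2 fold change of aldoaa was 0.06 (adjusted p = 0.0884, edgeR's quasi-likelihood test), -0.01 (-0.00726, adjusted p = 0.893) in the fit of all 18 libraries and 0.13 (adjusted p = 0.00138) with library size only. Counts of calls per list changed by at most 2 genes without embryo replicate 3 or without brain replicate 1. Depth limits genes at 0 to 3 counts in a group, whose fold changes are bounds or wide intervals.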
